A study of Mus musculus with 12 samples.

Results

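The genes described here are 10 members of the circadian clock, taken by symbol from files that list 24982 genes per library: Arntl, Clock, Per1, Per2, Per3, Cry1, Cry2, Nr1d1, Nr1d2 and Dbp. All 10 were found, and all 10 passed the filter on low values in each comparison. The study sequenced polyadenylated RNA of B lymphocytes from the spleens of mice 6 weeks old, in 12 libraries, 4 for each of 3 genotypes. The first group, WT, is given as C57BL/J6. The second, Eμ-Myc, carries a transgene in which an immunoglobulin heavy-chain enhancer raises Myc in the B lineage. The third, Eμ-Myc; PRPS2 KO (the KO group below), carries the same transgene and lacks PRPS2, one of the synthetases of phosphoribosyl pyrophosphate, from which nucleotides are built. The labels do not say how PRPS2 was deleted, and a PRPS2 KO group without the transgene was not analysed here. The labels call the replicates biological and do not say whether a library is 1 mouse or a pool, so the p-values measure the spread between these libraries. They give no time of day of collection. A difference in clock phase at collection and a difference between genotypes therefore cannot be told apart here.

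The mammalian clock is a transcriptional feedback loop. BMAL1 (the product of Arntl) and CLOCK bind E-box elements as a pair and activate Per and Cry genes, whose products return to the nucleus and repress that pair. In a second loop the nuclear receptors REV-ERBα (Nr1d1) and REV-ERBβ (Nr1d2) repress Arntl through ROR elements, to which the ROR receptors also bind as activators. DBP is an output factor that binds D-box elements, and its gene is itself an E-box target. Per1 and Per2 can also be induced within a short time by signals from outside the cell. In a tissue with a running clock the levels of Nr1d1, Dbp and the Per genes swing strongly over the day.

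The promoters of 4 members are shown first because the loops above are usually described through short elements in them, and because these members include the ones whose levels moved most. RefSeq start sites on GRCm38.p6 gave windows of 300 bases, 250 before and 50 from the start site on, for 9 of the 10 members (all but Per2), 13 windows in all. Each is printed in its gene's direction, in lower case, with a matched element in capitals: an E-box (CACGTG) or the core of a ROR element (TAGGTCA or TGGGTCA), searched on both strands, with no match overlapping another. Arntl and Per1 have 2 windows each, and the one with a match is shown: the other window of Arntl held no ROR core and the other of Per1 no E-box. The Arntl window shown lies at chr7:113207261-113207560 on the plus strand, the Per1 window shown at chr11:69098699-69098998 on the plus strand, the Cry1 window at chr10:85185005-85185304 on the minus strand and the Nr1d1 window at chr11:98775328-98775627 on the minus strand.
Arntl: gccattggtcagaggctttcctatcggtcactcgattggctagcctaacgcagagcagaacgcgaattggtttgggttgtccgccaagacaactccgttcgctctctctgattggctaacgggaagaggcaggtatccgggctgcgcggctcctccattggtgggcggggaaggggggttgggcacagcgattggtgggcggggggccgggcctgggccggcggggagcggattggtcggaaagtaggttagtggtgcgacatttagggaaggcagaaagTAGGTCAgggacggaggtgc
Per1: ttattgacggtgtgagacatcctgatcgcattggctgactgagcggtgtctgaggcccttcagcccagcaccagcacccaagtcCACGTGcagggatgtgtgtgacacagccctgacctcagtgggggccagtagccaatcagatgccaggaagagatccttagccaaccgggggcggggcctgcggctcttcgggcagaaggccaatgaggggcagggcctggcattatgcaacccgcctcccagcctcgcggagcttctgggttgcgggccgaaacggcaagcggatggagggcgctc
Cry1: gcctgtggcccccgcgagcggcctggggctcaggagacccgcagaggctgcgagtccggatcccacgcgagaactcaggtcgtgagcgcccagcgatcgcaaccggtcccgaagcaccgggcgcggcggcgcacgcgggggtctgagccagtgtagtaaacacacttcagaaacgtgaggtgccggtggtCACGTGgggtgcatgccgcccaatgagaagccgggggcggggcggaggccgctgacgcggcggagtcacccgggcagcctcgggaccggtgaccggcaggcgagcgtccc
Nr1d1: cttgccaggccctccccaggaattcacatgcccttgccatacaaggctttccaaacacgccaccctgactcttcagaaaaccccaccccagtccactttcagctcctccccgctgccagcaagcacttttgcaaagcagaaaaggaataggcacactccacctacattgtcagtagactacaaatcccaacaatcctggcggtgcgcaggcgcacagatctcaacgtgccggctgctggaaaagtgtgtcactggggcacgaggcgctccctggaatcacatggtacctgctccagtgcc
The E-box lay 166 to 161 bases before the start site of this Per1 window and 60 to 55 bases before that of Cry1. The ROR core lay 30 to 36 bases after the start site of this Arntl window. A D-box (TTATGTAA or TTACGTAA) was found in the window of Per3 alone, at 2 places. No element matched in the window of Nr1d1, which says only that these letters are not in that stretch. The E-box was in 2 of the 13 windows of members, those of Per1 and Cry1 shown. No element matched in the windows of Clock, Cry2, Nr1d2 and Dbp. Of the 32851 promoter windows of all genes, 7.15% held the E-box, 6.45% the ROR core and 1.06% the D-box. These matches are descriptions and were not related to the RNA levels.

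Some libraries stood apart, and their values touch most results below. KO libraries 1 and 2 correlated across genes with r = 0.988 and KO libraries 3 and 4 with r = 0.995, while pairs across these had r of 0.871 to 0.910. The median SD of a gene on the log2 scale was 0.37 in the KO group, 0.211 in WT and 0.212 in Eμ-Myc. The labelled cell type was present: the summed scaled coverage of 6 B-cell markers ran from 5900 to 11400 over the 12 libraries. Markers of other cells were present too. The sum of 6 T-cell markers was 356 to 1930 in WT, 74.6 to 109 in Eμ-Myc, 446 and 461 in KO libraries 1 and 2, and 10.2 and 9.82 in KO libraries 3 and 4. Myeloid markers summed to 7970 to 25400 in WT, 5510 to 16400 in Eμ-Myc and 1160 to 15300 for the KO group. Immature B-cell genes summed to 324 to 735 in WT, 1280 to 1940 in Eμ-Myc and 880 to 1520 for the KO group, and mature B-cell genes to 3530 to 4970, 1020 to 1500 and 458 to 2230. Most of the immature sum was Vpreb3, with 297 to 712, 1210 to 1890 and 822 to 1480, so it is not a value of the list as a whole. Dntt overlapped between WT (4.06 to 13.7) and Eμ-Myc (5.16 to 10.7). In KO libraries 1 to 4 Vpreb3 had 822, 882, 1480 and 1360, but Rag1 had 22.6, 27.7, 8.03 and 9.71. A list of 7 immediate early genes, chosen after the values were seen, summed to 3890 and 3000 in WT libraries 1 and 4 but to 530 and 526 in WT libraries 2 and 3. Its sums in KO libraries 1 to 4 were 1860, 1760, 180 and 152. Prps2, as a check of the labels, had 15.4 to 18.7 in the KO group against 198 to 285 in Eμ-Myc. In bulk RNA, fewer cells of a type and less RNA per cell cannot be told apart.

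Values are scaled coverage, the deposited coverage of a gene divided by a factor for its library, and means are given with the SD over 4 libraries. Levels of different genes are ordered on the understanding that coverage is already per base of the gene, which the sources used here do not spell out. In WT, Per1 (56.7 ± 23.6) and Arntl (55.3 ± 8.20) led and overlapped each other. Cry1 (21.7 ± 2.43), Dbp (21.7 ± 4.62) and Clock (21.2 ± 3.27) followed and could not be ordered, and Nr1d2 (16.2 ± 2.67) came after them with a range that met that of Clock. Cry2 (7.88 ± 0.413), Per3 (5.51 ± 0.687), Per2 (4.13 ± 1.66) and Nr1d1 (2.80 ± 0.910) closed the order, the last 3 with overlapping ranges between neighbours. Nr1d1 was thus the lowest of the 10 by mean level in WT. In Eμ-Myc, Arntl alone led at 87.6 ± 2.37, and Nr1d1 stood seventh at 12.02 ± 1.31, above Cry2 in 4 of 4 libraries. The KO group had nearly the same order by mean as Eμ-Myc, with Arntl first at 79.7 ± 8.21, Nr1d1 seventh at 12.4 ± 4.89 and Per2 last at 2.20 ± 0.779. There the ranges of neighbours overlapped from Per1 down to Cry2, so that stretch of the order is not firm, and in Eμ-Myc those of Per1, Dbp and Cry1 and those of Clock, Nr1d2 and Nr1d1 did.

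**Figure D1:**
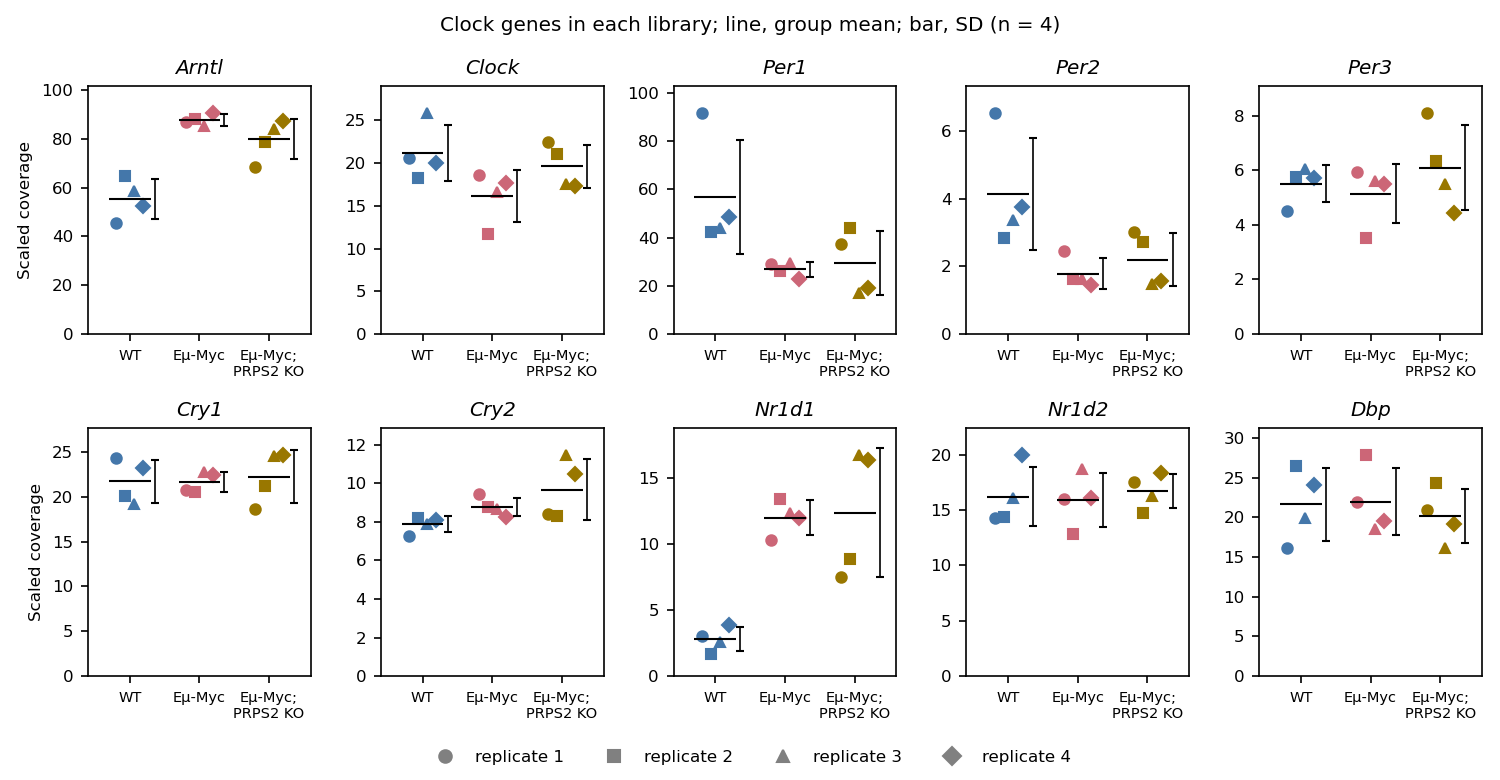
Scaled coverage of each clock gene (vertical axes, starting at 0 and different for each gene) in the 12 libraries, 4 per genotype. Symbols mark replicates 1 to 4, the horizontal line is the group mean and the bar the SD (n = 4). Nr1d1 lies at 1.70 to 3.89 in WT and at 7.49 to 16.8 in the transgenic libraries, while Cry1 lies between 18.6 and 24.7 in all 12.

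The first comparison, Eμ-Myc against WT, asks which programmes differ with the Myc transgene. Nr1d1 and Arntl rose and Per1 and Per2 fell, so both loops of the clock held changed genes, while Clock, Per3, Cry1, Cry2, Nr1d2 and Dbp did not pass the test. Of the 10 members 4 were called by limma at a Benjamini-Hochberg adjusted p under 0.05, 2 higher and 2 lower. Over all 12704 genes tested 55.8% were called, 29.1% higher and 26.7% lower, so the share among the members was not above that of all genes. Of all calls 52.1% were higher, and 42% with scaling by total coverage. The median log2 fold change of the members was -0.01 and that of all genes -0.05.

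Among the repressors of the second loop, Nr1d1 moved most. Its scaled coverage in WT libraries 1 to 4 was 3.03, 1.7, 2.6 and 3.89. In Eμ-Myc libraries 1 to 4 it was 10.3, 13.4, 12.4 and 12. The lowest Eμ-Myc library was thus well above the highest WT library, and the ratio of the means was 4.29. The log2 fold change was 1.96 (limma adjusted p 1.02e-04, SE 0.22), and it lay between 1.56 and 2.26 under all 17 alternatives that could test it. The paralog Nr1d2, which encodes a receptor with the same DNA target, ran from 14.3 to 20.0 in WT and from 12.8 to 18.7 in Eμ-Myc. Its log2 fold change was -0.03 (95% interval -0.39 to 0.34). Nr1d1 shares 263 of its 3077 exon bases with Thra, a thyroid hormone receptor gene on the opposite strand. The libraries were directional, but the strand setting of the counting is not given. Reads of the pair therefore cannot be told apart in the shared stretch. Thra itself had a log2 fold change of 0.42 (limma adjusted p 0.0382, SE 0.15), with groups that overlapped, a call lost under 9 of 18 alternatives.

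The activators Arntl and Clock, whose products work as a pair, had fold changes of opposite sign, of which that of Arntl was called. Arntl had 45.6, 64.8, 58.4 and 52.6 in WT libraries 1 to 4. It had 86.9, 87.9, 85.0 and 90.7 in the Eμ-Myc libraries. All Eμ-Myc libraries were above all WT libraries, and they lay within a narrow band. The log2 fold change was 0.67 (limma adjusted p 0.00108, SE 0.12). Clock had 20.6, 18.3, 25.9 and 20.0 in WT against 18.6, 11.7, 16.6 and 17.7 in Eμ-Myc. The ranges of Clock overlapped, and its log2 fold change of -0.39 missed the threshold (limma adjusted p 0.0828, SE 0.18), which library quality weights alone took past it (0.0363). The log2 difference of Arntl minus Clock within a library had a mean of 1.36 ± 0.307 over the WT libraries and 2.43 ± 0.296 over the Eμ-Myc libraries (SD, n = 4).

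The Per genes, whose products carry the negative arm with the cryptochromes, split into Per1 and Per2, which fell, and Per3, which was not called. Per1 had 91.9, 42.3, 44.2 and 48.6 in WT libraries 1 to 4 and 29.0, 26.1, 29.4 and 22.9 in Eμ-Myc libraries 1 to 4. WT library 1 stood far above the other WT libraries, but the lowest WT library was also above the highest Eμ-Myc library. The log2 fold change of Per1 was -0.996 (limma adjusted p 0.00584, SE 0.23). Per2 had 6.55, 2.83, 3.37 and 3.77 in WT and 2.45, 1.63, 1.63 and 1.45 in Eμ-Myc, again without overlap and again with WT library 1 highest. Its log2 fold change was -0.97 (limma adjusted p 0.0119, SE 0.27), on low coverage. WT libraries 1 and 4 are also those with the high immediate early sums, and they had the highest sums of T-cell markers (658 and 1930, against 356 and 466 in WT libraries 2 and 3), NK markers (682 and 929 against 211 and 242) and myeloid markers (25400 and 14600 against 7980 and 7970). Their sums of B-cell markers were the lowest of WT (6240 and 5940 against 11400 and 9790). Without both, Per1 fell by 0.69 (limma adjusted p 0.00519) and Per2 had a log2 fold change of -0.67 that was no longer called (0.0505). The part of the immediate early genes and of other cells in these results was not tested further. Per3 ranged from 4.51 to 6.06 in WT and from 3.53 to 5.94 in Eμ-Myc, with a log2 fold change of -0.11 (95% interval -0.56 to 0.34).

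Both cryptochromes, the main repressors of the CLOCK and BMAL1 pair, were among the members not called. Cry1 had means of 21.7 ± 2.43 and 21.6 ± 1.15 in WT and Eμ-Myc, and a log2 fold change of -0.0012 (95% interval -0.27 to 0.26). Cry2 had 7.29 to 8.22 in WT and 8.27 to 9.43 in Eμ-Myc, so the groups did not overlap. Its log2 fold change of 0.15 did not pass the test (limma adjusted p 0.353, SE 0.13). With Cry2, 5 members had groups that did not overlap, beside 52.1% of all genes tested. Dbp, the output factor that responds to the E-box arm, ran from 16.1 to 26.5 in WT and from 18.5 to 27.9 in Eμ-Myc. Its log2 fold change was 0.02 (95% interval -0.40 to 0.45).

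**Figure D2:**
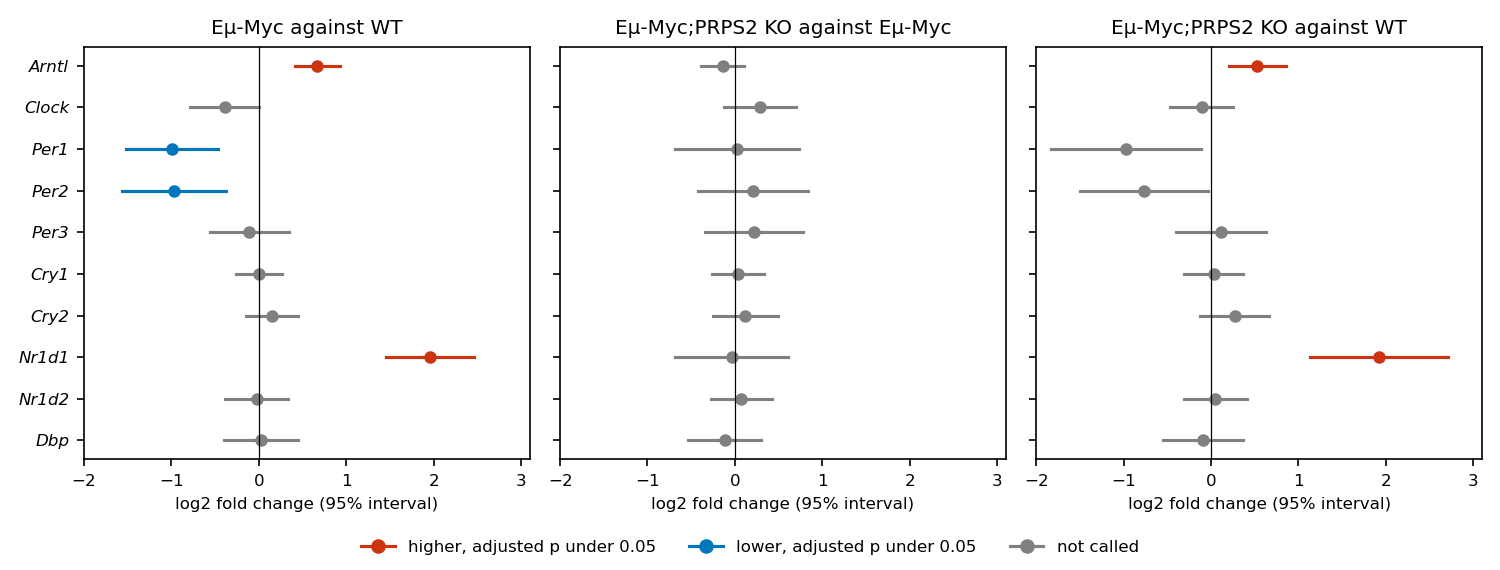
Log2 fold change of each clock gene with its 95% interval (horizontal axes) in the 3 comparisons, with 4 libraries per group. Red and blue mark genes called higher or lower by limma at an adjusted p under 0.05. In Eμ-Myc against WT 4 of the 10 genes are coloured, in the KO group against Eμ-Myc 0, and in the KO group against WT 2.

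The second comparison, the KO group against Eμ-Myc, asks what the loss of PRPS2 changes in the presence of the transgene. No member was called by limma, 0 of 10 had an unadjusted p under 0.05, and the groups of all 10 overlapped, beside 1.43% of all genes whose groups did not. Over all 12535 genes tested 0.00798% were called, which is 1 gene, Prps2 itself, and 0.989% had an unadjusted p under 0.05. The intervals were wide for some members: Per1 had a log2 fold change of 0.03 with a 95% interval of -0.68 to 0.73, and Nr1d1 -0.04 with -0.68 to 0.61. They were narrower for Arntl at -0.14 (-0.38 to 0.10), Cry1 at 0.03 (-0.27 to 0.33) and Nr1d2 at 0.07 (-0.28 to 0.42). Clock at 0.29 (-0.13 to 0.70), Per2 at 0.21 (-0.42 to 0.83), Per3 at 0.22 (-0.34 to 0.78), Cry2 at 0.12 (-0.25 to 0.49) and Dbp at -0.12 (-0.53 to 0.30) lay between. The fit with the replicate number as a block called 0 members as well.

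For several members the KO libraries lay on opposite sides of Eμ-Myc. Nr1d1 had 7.49 and 8.84 in KO libraries 1 and 2, below the 10.3 to 13.4 of Eμ-Myc, and 16.8 and 16.4 in libraries 3 and 4, above it. Per1 was placed the other way round, with 37.3 and 44.0 in libraries 1 and 2, above the 22.9 to 29.4 of Eμ-Myc, and 17.1 and 19.3 in libraries 3 and 4, below it. For both genes no KO library fell inside the Eμ-Myc range. Arntl had 68.6, 78.8, 84.1 and 87.4 in libraries 1 to 4, of which the last alone was within the 85.0 to 90.7 of Eμ-Myc. Cry2 had 8.42 and 8.32 in libraries 1 and 2 and 11.5 and 10.5 in libraries 3 and 4, the latter above the 8.27 to 9.43 of Eμ-Myc. Clock (22.5 and 21.0), Per2 (3.02 and 2.71) and Per3 (8.11 and 6.35) were above all Eμ-Myc libraries in KO libraries 1 and 2. In libraries 3 and 4 these 3 genes were within the Eμ-Myc range. Cry1 had 18.6 in KO library 1, below the 20.5 to 22.8 of Eμ-Myc, 21.2 in library 2, within it, and 24.5 and 24.7 in libraries 3 and 4, above it. Dbp was below the 18.5 to 27.9 of Eμ-Myc in KO library 3 alone, at 16.1. Nr1d2 stayed within the Eμ-Myc range in all 4 KO libraries.

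Other measured lists split the same libraries. Myc had 1130 and 1720 in KO libraries 1 and 2 and 2870 and 3120 in libraries 3 and 4, against 1550 to 2290 in Eμ-Myc. The sum of 8 cell-cycle genes was 1230 and 1660 in libraries 1 and 2 and 3330 and 3340 in libraries 3 and 4, against 2010 to 2690. T-cell markers and immediate early genes were high in libraries 1 and 2 and low in 3 and 4, as given above. Mature B-cell genes summed to 2230 and 1950 in libraries 1 and 2 and to 458 and 513 in libraries 3 and 4. Plasma-cell markers had 388 and 460 against 101 and 101, and myeloid markers 15300 and 11200 against 2780 and 1160, in the same order. Without KO libraries 1 and 2 the log2 fold change of Per1 was -0.54 (limma adjusted p 0.0316) and that of Nr1d1 0.45 (0.0620), and 3167 genes were called. Without libraries 3 and 4 they were 0.59 (0.0621) and -0.53 (0.0928), and 454 genes were called. The sign of both genes in this comparison thus depended on which pair of KO libraries was kept. The part of other cells, of B-cell maturity, of cell cycle and of immediate early genes in the positions of the clock genes was not tested.

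**Figure D3:**
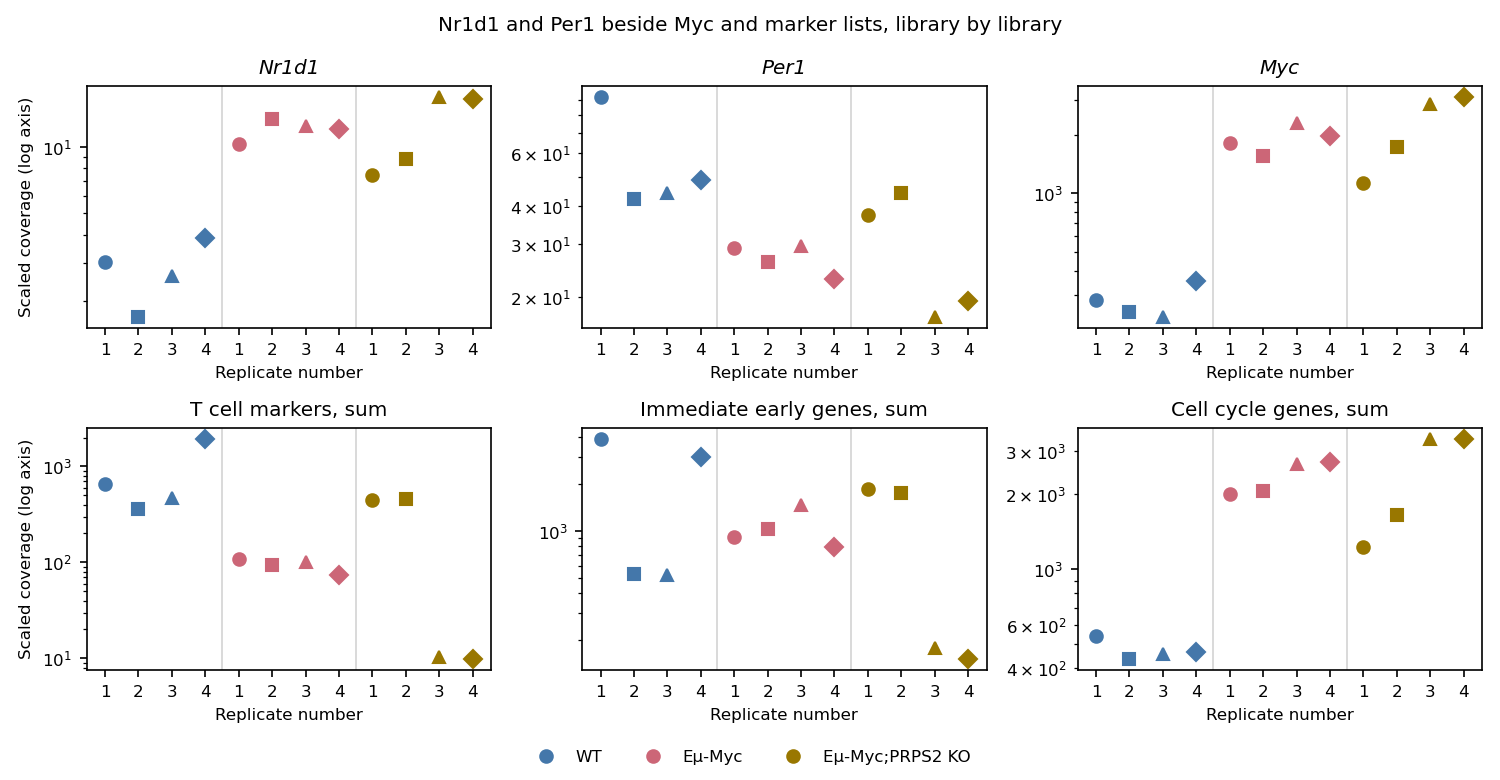
Scaled coverage on log axes for Nr1d1, Per1 and Myc and for the sums of T-cell markers, immediate early genes and cell-cycle genes, in replicates 1 to 4 of each genotype (horizontal axes). KO libraries 3 and 4 hold the highest Nr1d1 (16.8 and 16.4) and Myc (2870 and 3120) and the lowest Per1 (17.1 and 19.3), T-cell sums (10.2 and 9.82) and immediate early sums (180 and 152) of the 12 libraries.

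The third comparison, the KO group against WT, shares its WT libraries with the first and its KO libraries with the second, so its values are not independent of them. Nr1d1 and Arntl rose, and no member was called lower, with Per1 and Per2 below WT by mean at adjusted p of 0.0738 and 0.0879. The 2 calls among 10 members stand beside 30.7% of the 12692 genes tested, of which 19.7% were called higher and 11.0% lower. Nr1d1 had a log2 fold change of 1.92 (limma adjusted p 0.0114, SE 0.34), with the lowest KO library at 7.49 and the highest WT library at 3.89. Arntl had a log2 fold change of 0.53 (limma adjusted p 0.0318, SE 0.14), with 68.6 as the lowest KO and 64.8 as the highest WT value. The call of Arntl was lost under 10 of 20 alternatives, among them the removal of any single WT library and of KO library 3 or 4, with adjusted p up to 0.161. Nr1d1 lost its call in 1 alternative, without WT libraries 1 and 4 (2.22, adjusted p 0.0698), where 4 genes in all were called.

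Per1 and Per2 were at log2 values of -0.97 (limma adjusted p 0.0738, SE 0.37) and -0.77 (adjusted p 0.0879, SE 0.32) in this comparison and were not called. KO library 2 had 44.0 for Per1, above the 42.3 of WT library 2, so the groups overlapped. Without KO libraries 1 and 2 both were called lower, at -1.54 (adjusted p 0.00490) and -1.13 (0.0200) on the log2 scale, and without libraries 3 and 4 they were at -0.40 each (0.474 and 0.486). The fit of all 12 libraries called both as well (0.0295 and 0.0456), and Per1 alone was called without KO library 1 (0.0468) or 2 (0.0441). Cry2 had a log2 fold change of 0.27 (limma adjusted p 0.215) with groups that did not overlap, the third such member beside 38.2% of all genes. It was called in 2 of 19 alternatives, with library quality weights and without KO libraries 1 and 2. Over the 19 alternatives its log2 fold change ran from 0.0843 to 0.455. Clock (-0.11), Per3 (0.11), Cry1 (0.03), Nr1d2 (0.05) and Dbp (-0.09) were near 0 and overlapped. Whether the effect on a member differed between this comparison and the first is the second comparison itself, in which no member was called.

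A difference between members of the same library takes out most of the scaling, and is given here on the log2(scaled coverage + 0.5) scale. The log2 level of Nr1d1 minus that of Per1 was -4.71, -4.28, -3.85 and -3.48 in WT libraries 1 to 4. It was -1.45, -0.94, -1.21 and -0.91 in Eμ-Myc. In KO libraries 1 to 4 it was -2.24, -2.25, -0.03 and -0.23. The 8 transgenic libraries were thus above the WT libraries for this difference, and the KO libraries lay on either side of Eμ-Myc. Nr1d1 minus Nr1d2, the receptor gene against its paralog, was -2.37 ± 0.295 in WT, -0.38 ± 0.312 in Eμ-Myc and -0.50 ± 0.549 for the KO group (SD, n = 4). Cry2 minus Cry1 was -1.40 ± 0.208, -1.25 ± 0.134 and -1.16 ± 0.109 in the same order.

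The spread within a group also differed between members. In Eμ-Myc the SD on the log2 scale was 0.04 for Arntl, 0.08 for Cry1 and 0.07 for Cry2, and it reached 0.31 for Per3 and 0.29 for Clock. Per1 had 0.52 in WT and 0.67 in the KO group but 0.16 in Eμ-Myc. Nr1d1 had 0.42 in WT, 0.16 in Eμ-Myc and 0.58 for the KO group. The members with the smallest spread in the KO group were Nr1d2 at 0.13 and Arntl at 0.15.

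Other genes of the clock pathway were taken from a list of 30, of which 25 could be tested in Eμ-Myc against WT. Of these 12 were called, 7 higher and 5 lower, beside the 55.8% called among all genes. Their median log2 fold change was 0.06. The 5 lower ones include genes that passed the filter on low values through WT alone and so had to differ, and the count is not support for a change of the list. Rora, a receptor gene whose product activates through the elements that REV-ERB represses, is such a gene: it had 1.97, 1.42, 1.54 and 4.69 in WT libraries 1 to 4 and 0.943, 0.996, 0.918 and 0.447 in Eμ-Myc, and is described by these values. Its call is counted in the 12 above, is lost under 4 of 12 alternatives and supports nothing here. It was highest in WT library 4, which also had the highest sum of T-cell markers, cells in which RORA is known to be expressed. The part of T cells in this value was not tested. Among the E-box repressors, Bhlhe40 fell by 2.15 (adjusted p 2.62e-04, SE 0.29) and its paralog Bhlhe41 rose by 1.13 (adjusted p 0.00132, SE 0.20) on the log2 scale. Bhlhe40 had 38.5 to 43.1 in WT and 4.81 to 15.8 in Eμ-Myc, and Bhlhe41 had 13.3 to 22.8 and 33.8 to 51.3, so neither pair of groups overlapped.

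Of 4 tested genes for ubiquitin ligases and a protease that act on clock proteins, 2 were called (50%), 1 higher and 1 lower. That share is not above the 55.8% of all genes. The higher one, Btrc, whose product targets PER proteins for degradation, rose by 1.14 on the log2 scale (limma adjusted p 1.06e-04, SE 0.13). Of 7 kinase genes 3 were called (42.9%), 2 higher and 1 lower, which is not above the 55.8% called among all genes. Csnk2a2 and Csnk2b, a catalytic and the regulatory subunit of casein kinase 2, had 0.52 (adjusted p 0.00362, SE 0.11) and 0.46 (adjusted p 0.0177, SE 0.14). Gsk3b, a glycogen synthase kinase gene, had -0.35 (adjusted p 0.0277, SE 0.12), a call lost under 5 of 18 alternatives, with WT library 1 or 3 or Eμ-Myc library 3 or 4 left out, or WT libraries 1 and 4 together (adjusted p up to 0.0944). In the PER complex list, Timeless had 1.69 (adjusted p 1.74e-05, SE 0.14) and Nono 0.74 (adjusted p 3.64e-04, SE 0.10). Wee1, a cell-cycle kinase gene described as a clock output, rose from 16.2 ± 2.23 to 75.1 ± 8.43 (SD, n = 4), a log2 fold change of 2.18 (adjusted p 4.57e-06, SE 0.13). Timeless and Wee1 also act in DNA replication and the cell cycle, and the sum of cell-cycle genes was between 436 and 538 in WT and between 2010 and 2690 in Eμ-Myc. Its part in these values was not tested. Tef and Nfil3, the D-box factors tested beside Dbp, were not called (-0.23 and -1.40, adjusted p 0.0966 and 0.144). Tef passed in 3 of 18 alternatives. Nfil3 had 78.1 in WT library 1 against 7.51 to 16.8 in the other WT libraries, and its log2 fold change without that library was -0.68 (adjusted p 0.301).

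In the KO group against Eμ-Myc 0 of 23 genes of this list were called by limma, beside 0.00798% of all genes tested. Of the 23 genes 0 had an unadjusted p under 0.05, beside 0.989% of all genes. Against WT 8 of 25 were called, 6 higher and 2 lower, beside 30.7% of all genes. Wee1 had 2.12 (limma adjusted p 0.00955, SE 0.34) and Bhlhe40 -2.47 (adjusted p 0.0455, SE 0.77). The call of Bhlhe40 was lost under 9 of 19 alternatives, among them the removal of any single WT library and of KO library 3 or 4, with adjusted p up to 0.186. Without both KO libraries 3 and 4 it was still called, at -0.93 (adjusted p 0.0114). The call of Wee1 was lost in 1 of 20, without WT libraries 1 and 4 (adjusted p 0.0877). Bhlhe40 followed the split of the KO libraries, with 19.0 and 24.2 in libraries 1 and 2 and 2.22 and 2.01 in libraries 3 and 4. Wee1 had 39.9 and 54.7 in libraries 1 and 2 and 113 and 107 in libraries 3 and 4.

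**Figure D4:**
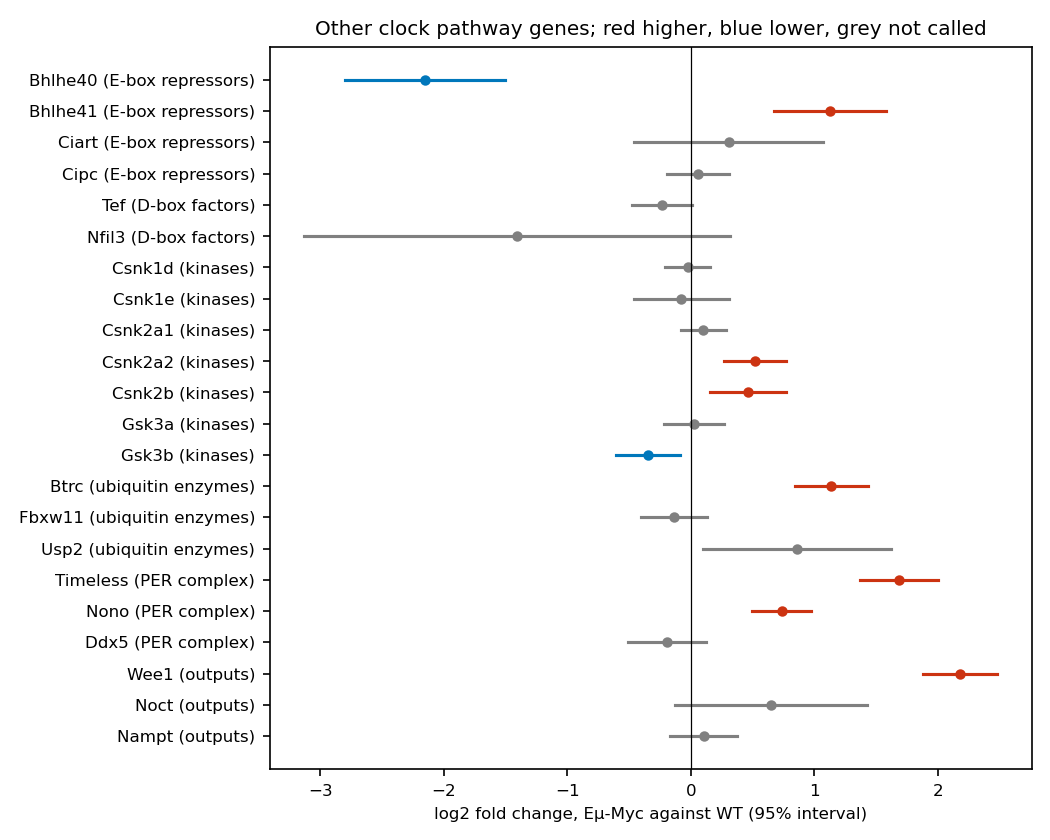
Log2 fold change in Eμ-Myc against WT (horizontal axis) with its 95% interval for 22 of the other clock pathway genes that could be tested, without those that passed the filter on low values through WT alone, 4 libraries per group, ordered by role. Wee1 (2.18) and Bhlhe40 (-2.15) lie farthest to either side, and 9 of the genes drawn are coloured as called by limma.

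For each member the genes with the most similar course over the 12 libraries were found by the root mean square difference of centred log2 values, over 11791 other genes. Nearest to Nr1d1 were Cdca7l (0.14), Kifc5b (0.16) and Elovl6 (0.16). Nearest to Per1 were Numb (0.15), Rab8b (0.16) and Sbno2 (0.17), and Numb was also nearest to Per2 (0.11). The nearest gene was Vars for Arntl (0.08), Ralgapa1 for Clock (0.07), Adgrl2 for Per3 (0.14), Ppm1a for Cry1 (0.06), Tti2 for Cry2 (0.08), Zfp180 for Nr1d2 (0.10) and Rbm4b for Dbp (0.15). Among the members themselves Per1 and Per2 differed by 0.20, which ranked Per2 at 21 of 11800 genes for Per1. Nr1d1 had no member close to it: its nearest, Arntl, differed by 0.74 and ranked 2813. The 12 points of each course share their libraries and the 3 genotypes, so these are descriptions.

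On GRCm38, Arntl spans chr7:113207465-113314126, Per1 chr11:69095217-69109960, Per2 chr1:91415982-91459324 and Nr1d1 chr11:98767932-98775333. Besides Nr1d1, Dbp shares 539 exon bases with Sphk2 on the opposite strand, whose log2 fold change in Eμ-Myc against WT was -0.20 (limma adjusted p 0.142). Cry2 shares 295 exon bases with D930015M05Rik, listed at 0 in all 12 libraries. Camta1 overlaps Per3 on the same strand without a shared exon base and had 0.69 (limma adjusted p 0.0105, SE 0.18), while Per3 had -0.11.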

How the data were processed

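The authors deposited 1 file per library with a coverage value for each gene, a signal with 1 decimal that never falls below 0. Most nonzero values (91.6%) had a decimal part. The submitters' processing notes name DESeq, R 4.3.3 and the build mm10. The aligner, the counting step, the strand setting and the annotation are not given in the sources used here. With the depth in reads unknown, no counting interval is given. Coverage summed to 1277305.5 to 1885768.9 per library, with 14900 to 16231 genes above 0. Groups come from the genotype in the labels.

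From these files, each library was scaled by an unweighted trimmed mean of log ratios (30% of ratios and 5% of means trimmed at either end) over genes with coverage of 1 or more. A gene was tested where 4 or more of the 8 libraries reached a scaled coverage of 1. limma 3.58.1 in R 4.3.3 was fitted to log2(scaled coverage + 0.5) with a trended, robust prior, so fold changes of low genes are understated. Tests were two-sided, adjusted by Benjamini-Hochberg over every gene tested, and called at an adjusted p under 0.05. The method was run on simulated data with noise drawn independently for each gene and library. Such data do not hold the split of the KO libraries.

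The members, gene lists and tests were chosen with earlier results of these data known. By the rule for names, the text names all 10 members, Prps2, Myc, genes overlapping a member, up to 10 other clock genes with the largest fold change among those called in Eμ-Myc against WT, and the nearest genes by course. Tef, Nfil3, Csnk2b and Gsk3b were named beyond that rule, after their values were seen. Some genes that the rule takes in are not reported here, though counts over the list include them. Marker lists are given as sums over their genes, and Vpreb3, Rag1 and Dntt are also named, after their values were seen. NK markers summed to 211 to 929 in WT, 55.9 to 159 in Eμ-Myc and 13.8 to 372 in the KO group. Erythroid markers had 77.6 to 861, 80.8 to 491 and 80.9 to 109, and plasma-cell markers 408 to 680, 342 to 433 and 101 to 460, in the same order. Markers were not used to adjust any value.

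Replicates carry the numbers 1 to 4 per genotype. Between the KO group and Eμ-Myc, same-numbered libraries deviated together from their group means across genes (r of 0.658, 0.192, 0.254 and 0.607), so a fit with these numbers as pairs was run as an alternative. For Eμ-Myc libraries 2 and 3, however, the KO library with the highest r had another number. No label says that the numbers are pairs. Other alternatives changed the scaling, the filter or the pseudocount, used 12 libraries at once or library quality weights, or removed libraries. Removal of WT libraries 1 and 4 together was chosen after seeing the data.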

Additional observations from a re-analysis of the deposited data

Results flagged for a closer look

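A sample far from the other 3 of its group was found for 6 of 87 pairs of a gene and a group, where chance gives about 1 in 20. Per1 had a scaled coverage of 91.9 in WT library 1, against 42.3 to 48.6 in the other WT libraries. Rora, a ROR receptor gene, had 4.69 in WT library 4 against 1.42 to 1.97, and 0.447 in Eμ-Myc library 4 against 0.918 to 0.996. Btrc, a ubiquitin ligase gene, had 211 in Eμ-Myc library 1 against 226 to 228 in the others. Nfil3, a D-box factor gene, had 78.1 in WT library 1 against 7.51 to 16.8, and Csnk2b, a casein kinase 2 subunit gene, had 965 in Eμ-Myc library 2 against 725 to 748. Without WT library 1 the log2 fold change of Per1 in Eμ-Myc against WT was -0.74 (limma adjusted p 0.00154).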

How the results depend on the processing

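Across the members, 57 of the fold changes computed under an alternative had the other sign, all of values not called as reported. Nr1d1, Arntl and Per1 kept their calls in Eμ-Myc against WT wherever they could be tested, and Per2 lost its call without WT replicates 1 and 4. Total coverage scaling shifted the median of all genes in that comparison by -0.14 and the share of calls that were higher from 52.1% to 42%. For the changes below the cause was not tested, unless libraries or genes were removed. Coverage gives no read depth, so the counting noise of low genes such as Per2, Per3 and Nr1d1 could not be given. Their differences were judged against the spread between libraries alone.

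In Eμ-Myc against WT, a filter of 10 in every library left 2 members called, since Per2 and Nr1d1 could then not be tested. Quality weights gave log2 fold changes of 0.136 for Cry1, 0.166 for Nr1d2 and -0.195 for Dbp. Without WT replicates 1 and 4 they were 0.132, 0.0509 and -0.0856. Total coverage scaling gave -0.114 for Dbp. Leaving out 1 library gave ranges of -0.0558 to 0.0544 for Cry1, -0.105 to 0.0777 for Nr1d2, -0.108 to 0.128 for Dbp and -0.193 to 0.0461 for Per3. Genes called ran from 5834 to 6922 when 1 library was left out, and members called were 4 each time.

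In the KO group against Eμ-Myc, quality weights, which put most weight on KO libraries 3 and 4, called 7000 genes, 3 members (Per1, Cry2 and Nr1d1) and 12 other clock genes. They gave -0.516 for Per1, -0.0677 for Per2, -0.201 for Per3 and 0.419 for Nr1d1. Without KO replicates 1 and 2, 3167 genes, 1 member and 3 other clock genes were called, with -0.542 for Per1, -0.156 for Per2, -0.029 for Per3 and 0.454 for Nr1d1. Without KO replicates 3 and 4, 454 genes were called, with -0.117 for Cry1, -0.0645 for Cry2 and 0.0588 for Dbp. Nr1d1 was at 0.00323 with median-of-ratios scaling and 0.00534 with total coverage scaling. Leaving out 1 library gave -0.202 to 0.243 for Per1, -0.0187 to 0.114 for Cry1, -0.208 to 0.164 for Nr1d1, -0.0229 to 0.154 for Nr1d2 and -0.212 to 0.00236 for Dbp. The replicate block, treated as a pairing here, called 1 gene and 0 members and changed no call of this comparison.

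In the KO group against WT, 3901 genes were called, against 6095 in the fit of all 12 libraries, 10607 with quality weights, 8654 without KO replicates 1 and 2, 1422 without KO replicates 3 and 4, and 4 without WT replicates 1 and 4. Members called were then 4, 7, 5, 1 and 0. Total coverage scaling and the filter of 10 in every library each left 1 member called. Other clock genes called were 20 with quality weights, 16 without KO replicates 1 and 2, 5 without KO replicates 3 and 4, and 0 without WT replicates 1 and 4. Leaving out 1 library gave 774 genes (without WT replicate 3) to 6748 genes (without KO replicate 1), 1 to 3 members and 4 to 10 other clock genes. Quality weights gave -0.259 for Per3, and without KO replicates 1 and 2 it was at -0.137. Without KO replicates 3 and 4 the values were 0.0469 for Clock, -0.118 for Cry1, -0.00251 for Nr1d2 and 0.0826 for Dbp. Total coverage scaling gave -0.0611 for Cry1 and -0.0433 for Nr1d2. Leaving out 1 library gave -0.0259 to 0.242 for Per3, -0.0225 to 0.113 for Cry1, -0.00296 to 0.152 for Nr1d2 and -0.225 to 0.0106 for Dbp. Against WT, libraries with the same number deviated together less (r of 0.397, -0.422, 0.137 and -0.063), so the numbers are not taken as pairs. The replicate block gave 1932 genes and 1 member there.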
